A study of Mus musculus with 11 samples.

Results

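Transcripts of 9 complement genes (C1qa, C1qb, C1qc, C1ra, C2, C3, C4b, C7 and Serping1) were followed across the cell classes of mouse perigonadal white adipose tissue (pgWAT). The members were the rows of the count table that carried these symbols, and all 9 had a row among 23507 gene rows. The cells were the stromal vascular fraction, that is, the cells of the tissue other than adipocytes, of adult male and female mice that carried the Pdgfrb-eGFP reporter transgene, backcrossed to C57BL6/J. Both sexes carried the transgene, the labels name no treatment, and in these mice green fluorescence marks cells in which the Pdgfrb promoter is active. Cells negative for CD45 (the leukocyte surface protein encoded by Ptprc) were sorted by the reporter, by CD31 (an endothelial surface protein) and, in 1 female, by DPP4 (a surface peptidase that marks one subtype of adipose stem cell), into plates that each held cells of 1 mouse id. The table held 3261 cells on 11 plates, 1177 of 3 males (mice 1, 4 and 8) and 2084 of 4 female ids (2, 3, 5 and 6/7, where 6/7 stands for 2 animals).

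Complement is a cascade of plasma proteins that marks microbes, immune complexes and cell debris for removal. In the classical pathway C1q binds its target, the proteases C1r and C1s travel with it, and C1s cleaves C4 and C2. The C4 and C2 fragments together cleave C3, and the terminal proteins C5 to C9 assemble into a pore in the membrane. Serping1 encodes the C1 inhibitor, a serpin that blocks C1r and C1s. Liver is the main source of most of these proteins in plasma, while C1q is a classical product of tissue macrophages, and fat is known for making components of the alternative pathway, adipsin (Cfd) among them.

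Each cell had between 149931 and 3548334 reads (median 629323), and the reads summed to between 144241876 (mouse 5) and 835066488 (mouse 2) per mouse. Clustering without 25 complement genes that were among the variable genes gave 17 clusters, which were named by markers. Classes are called "-like" for this reason. There were 2250 adipose stem cell (ASC)-like cells from all 7 mice, 559 endothelial cell (EC)-like cells from 5, 137 macrophage-like cells from mice 1 (76 cells) and 5 (61 cells), 60 pericyte-like cells, 41 vascular smooth muscle cell (VSMC)-like cells, 22 lymphatic EC-like and 19 epithelial-like cells, and 173 cells stayed unnamed. ASC-like cells expressed 4 of 4 ASC markers (Pdgfra, Col1a1, Dcn, Lum), with a sum between 9838 and 23231 CPM (counts relative to the size of the library) in every mouse. The macrophage markers Cd68, Cd163 and Cd14 averaged 414 ± 74.3, 243 ± 90.6 and 189 ± 115 CPM (SD, 2 mice) in macrophage-like cells and 0.769 ± 0.545, 0.123 ± 0.129 and 3.17 ± 1.40 CPM (SD, 7 mice) in ASC-like cells. Although the gate was CD45-negative, Ptprc reached 177 and 143 CPM in the macrophage-like cells of mice 1 and 5. In the tests of sex each p-value measures the spread between mice, and in the tests of class and subtype the spread of differences within mice. Mice and plates cannot be told apart except in mice 1, 2 and 6/7, which had more than 1 plate. The plates of these mice were different sorts, so class there went largely with plate. In mouse 1, 173 EC-like and 73 macrophage-like cells lay on plate 171 and 242 ASC-like cells on plate 172. In mice 5 and 8 the classes shared a plate, and the part of plates in the class differences was not tested.

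The members divided between 2 classes. C1qa, C1qb and C1qc were the most abundant members in macrophage-like cells, whereas Serping1, C3 and C1ra were the most abundant in ASC-like cells, and C4b was present in both. To compare genes with one another, levels were taken per kilobase of exon (CPM per kb). In ASC-like cells (7 mice) Serping1 averaged 1328 ± 352 CPM per kb (SD), C3 598 ± 482 and C1ra 224.5 ± 76.6. Serping1 lay above C3 in 6 of 7 mice and C3 above C1ra in 7 of 7, although the ranges over mice overlapped in both pairs. Lower in the order came C4b with 35.9 ± 18.9 CPM per kb and C2 with 19.1 ± 9.47. The place of C7 depended on sex. It averaged 130 ± 40.1 CPM per kb in the 3 males, above C4b in each of them, and 1.42 ± 0.409 CPM per kb in the 4 females, below C4b and C2 in each of them. The range of C2 did not overlap that of any C1q gene, whose means were 0.591 (C1qa), 0.464 (C1qb) and 0.184 (C1qc) CPM per kb. In macrophage-like cells (2 mice) the order began with C1qb at 2314 ± 935 CPM per kb and C1qa at 2224 ± 409, which changed places between the mice. C1qc at 959 ± 218 and C4b at 104 ± 3.03 CPM per kb followed in both mice, and the other 5 members averaged between 0.313 (C7) and 4.05 (C1ra) CPM per kb. In EC-like cells (5 mice) no member averaged above 5.40 CPM per kb, the mean of Serping1, and the ranges of all neighbours in the order overlapped.

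**Figure D1:**
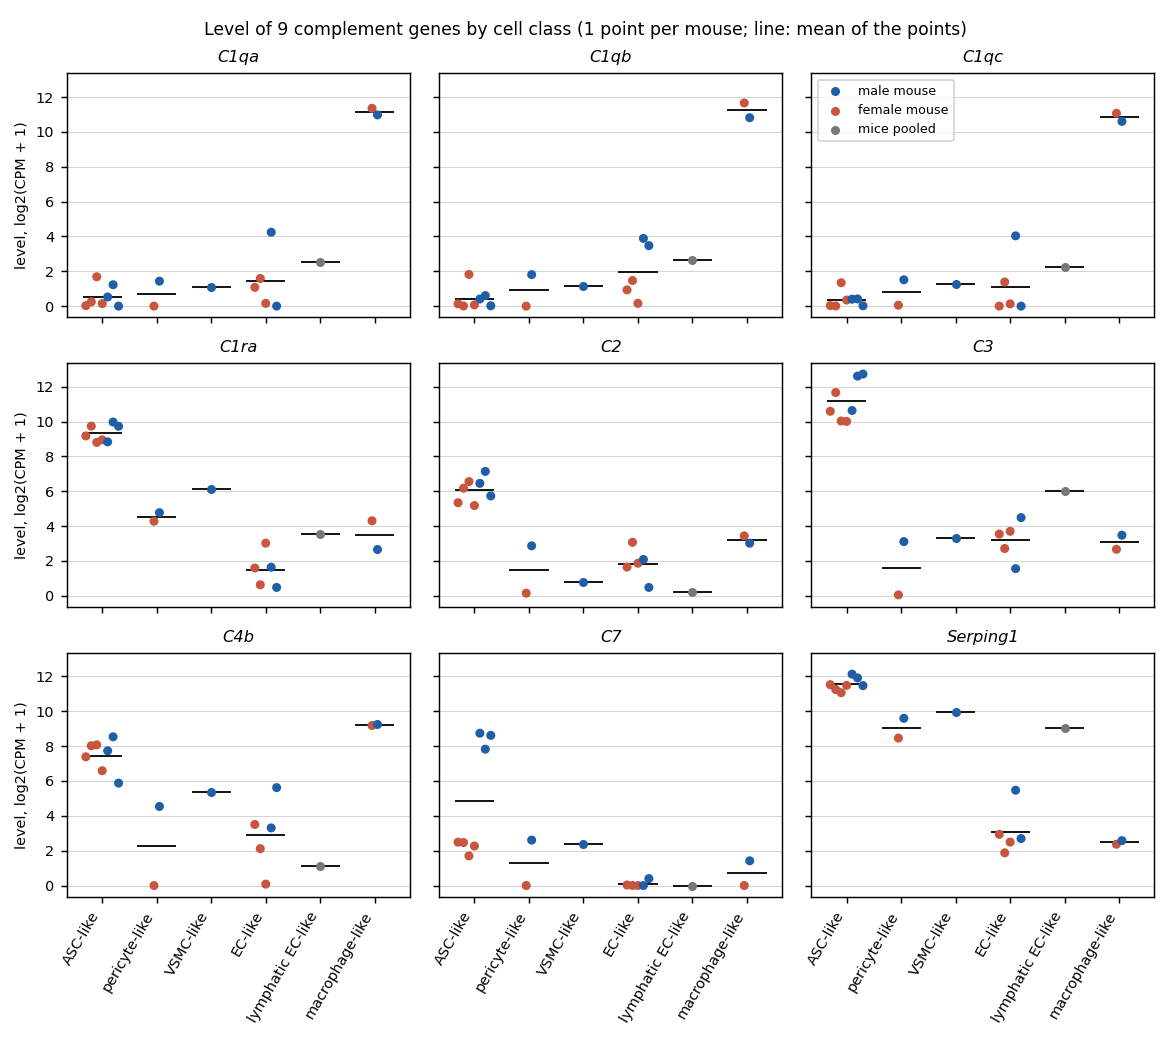
Level of each member in each class, as log2(CPM + 1) on the vertical axis, with 1 point per mouse (blue male, red female, grey cells pooled over mice) and a line at the mean of the points. C1qa, C1qb and C1qc stand above 10 only in macrophage-like cells, Serping1, C3 and C1ra are highest in ASC-like cells, C4b is high in both, and the male and female points of C7 in ASC-like cells do not overlap.

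C1qa (ENSMUSG00000036887, GRCm38 chromosome 4, 136895917 to 136898803), C1qc (ENSMUSG00000036896, chromosome 4, 136889804 to 136893065) and C1qb (ENSMUSG00000036905, chromosome 4, 136880129 to 136886187) encode the chains of C1q, the recognition molecule of the classical pathway, and lie side by side on the minus strand. Because these genes shared a pattern over classes, the bases before their starts are shown, from the RefSeq annotation of GRCm38.p6, which had an entry for 5 of the 9 members (C1qb, C1qc, C1ra, C3 and C7). Positions of motifs are counted back from the RefSeq start. Capitals mark matches to GAGGAA, the core letters bound by the myeloid ETS factor PU.1, and to AGAACA, the half-site letters of the androgen and glucocorticoid receptors, on either strand.
C1qb (chr4:136886201-136886450, minus strand): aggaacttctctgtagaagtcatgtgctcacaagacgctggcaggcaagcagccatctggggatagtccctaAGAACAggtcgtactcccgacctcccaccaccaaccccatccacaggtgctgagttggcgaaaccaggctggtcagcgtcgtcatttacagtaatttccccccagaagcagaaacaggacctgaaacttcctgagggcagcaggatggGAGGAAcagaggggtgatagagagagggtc
C1qc (chr4:136893066-136893164, minus strand): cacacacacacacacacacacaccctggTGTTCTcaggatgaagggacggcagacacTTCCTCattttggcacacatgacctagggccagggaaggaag
The start of C1qb has GAGGAA from 30 to 25 bases and AGAACA from 178 to 173 bases upstream. That of C1qc has both on the opposite strand, GAGGAA from 193 to 188 and AGAACA from 222 to 217 bases upstream, within the 99 bases printed, which are those that lie before both the RefSeq and the GENCODE start. Of the 250 bases before 32851 RefSeq starts, 23.3% hold GAGGAA and 16.1% hold AGAACA, and the 2 motifs do not overlap here. Such matches are letters in a window and no evidence of binding. The RefSeq starts of C1qb and C1qc are 6714 bases apart.

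In macrophage-like cells C1qa measured 2013 CPM in mouse 1 and 2614 CPM in mouse 5, C1qb 1798 and 3237 CPM, and C1qc 1554 and 2148 CPM. The ASC-like cells of the same mice had 0.439 and 2.21 CPM of C1qa, 0.324 and 2.53 CPM of C1qb and 0.318 and 1.53 CPM of C1qc, so the classes were far apart in both mice. With the mouse as a block, the fitted level of C1qa in macrophage-like cells was above that in ASC-like cells by 11.41 on the log2 scale (SE 0.840, edgeR), that of C1qb by 11.60 (SE 0.880) and that of C1qc by 11.58 (SE 0.812). These differences are a description and carry no p-value, because the filter on low values (over 600 reads in 2 sums) was passed by the macrophage-like sums alone, with 86009 to 129596 reads, while the ASC-like sums of mice 1 and 5 held 47 to 183. The mouse 1 and mouse 5 sums each come from 1 animal, male and female, so the fit has 1 residual degree of freedom and macrophage-like cells give no test of sex. Of 137 macrophage-like cells 134 had reads of all 3 C1q genes, 2 had reads of 2 of them and 1 had none. As a description, the 3 genes varied together among the cells of a mouse, with Pearson's r between 0.926 and 0.974 in mouse 1 (76 cells) and between 0.777 and 0.935 in mouse 5 (61 cells), where the cells share plates and differ in depth. The class also held reads of 3 of 3 mast cell markers (Cpa3, Kit, Mcpt4), which summed to 1386 CPM in mouse 1 and 674 CPM in mouse 5 against 0.0220 to 0.883 CPM in ASC-like cells, and of 4 lymphatic EC markers, which summed to 419 and 727 CPM, with Prox1 at 0.0999 to 0.214 CPM. In lymphatic EC-like cells, pooled over mice, the same lymphatic EC markers summed to 28480 CPM and the 4 EC markers to 2485 CPM. The EC markers summed to 29.1 and 5.57 CPM in the macrophage-like cells of mice 1 and 5. Whether mast cells or lymphatic EC were in the class was not tested, nor was the part of any such cells in the C1q levels.

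Outside the macrophage-like class the share of cells with C1q reads differed between plates. On plate 843 (mouse 5), which held 61 macrophage-like cells, 96 of 104 ASC-like cells (92.3%, exact 95% interval 85.4 to 96.6%) and 40 of 46 EC-like cells (87.0%) had at least 1 read of a C1q gene, and the median ASC-like cell with any had 4 reads. On plate 171 (mouse 1), which held 73 macrophage-like cells, 172 of 173 EC-like cells (99.4%) had such a read, with a median of 16. On the plates without macrophage-like cells the share was 0.847 to 9.92% of ASC-like cells and 3.45 to 5.07% of EC-like cells, and on plate 172, with 3 macrophage-like cells, it was 1.65% of ASC-like cells. Median depth was 669528 reads in the ASC-like cells of plate 843 and between 393731 and 828256 on the other plates, and in EC-like cells it was 476835 on plate 171, 520178 on plate 843 and between 280639 and 920024 on the others. The part of depth in the shares was not tested. Such intervals cover counting error only, since the reads carry no molecular identifiers. In CPM of reads in genes, C1q summed to 6.66 in the ASC-like and 6.01 in the EC-like cells of plate 843 and to 38.5 in the EC-like cells of plate 171. Summed levels did not separate the plates as the shares did. The EC-like cells of plate 344, with 0 macrophage-like cells, had 8.60 CPM, all 127 reads being in 1 cell, and the ASC-like cells of plates 131 and 43, also with 0, had 2.42 and 2.34 CPM. The source of these reads was not tested. In the ASC-like sums of whole mice the highest level of a C1q gene was 2.53 CPM (C1qb, mouse 5).

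**Figure D2:**
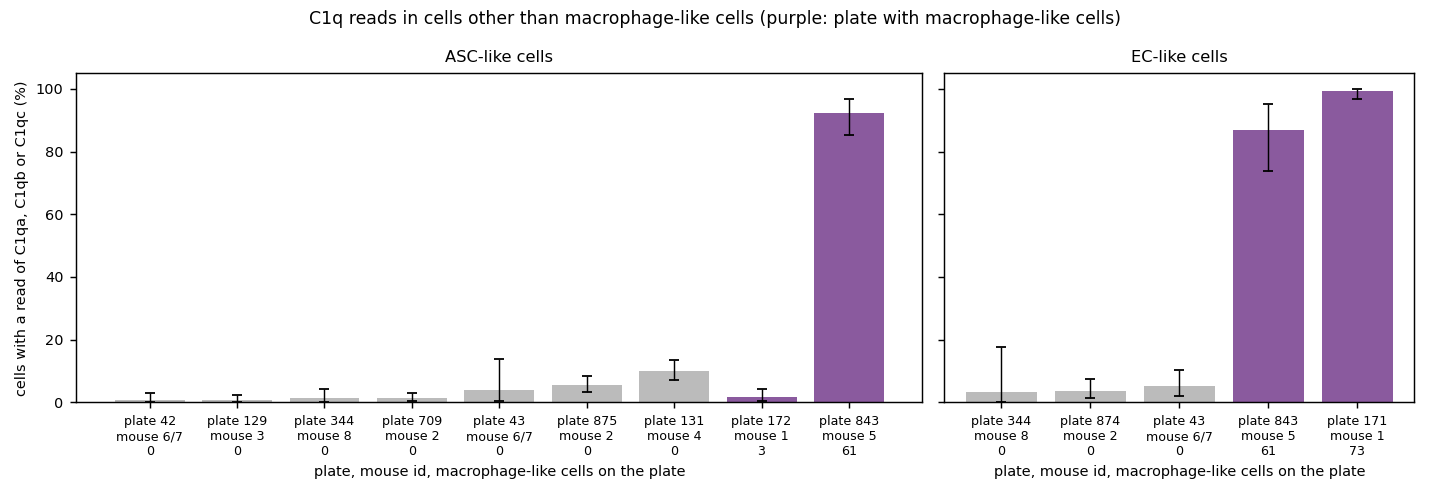
Percent of ASC-like (left) and EC-like (right) cells with at least 1 read of C1qa, C1qb or C1qc, by plate, with the mouse id and the number of macrophage-like cells of the plate under each bar and exact 95% intervals as error bars. Plates 843 and 171, with 61 and 73 macrophage-like cells, stand at 87.0 to 99.4%, and every other plate is below 10%.

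C4b (ENSMUSG00000073418, chromosome 17, 34728380 to 34743882) encodes the C4 component that C1s cleaves, and C4a, a close copy of it, lies near. C4b took 94.4 to 99.1% of the reads of the pair in ASC-like cells and 94.1 to 96.5% in macrophage-like cells, although reads of near-identical copies can be split wrongly by the counting. C4b measured 605 CPM and 581 CPM in the macrophage-like cells of mice 1 and 5 and 212 and 269 CPM in their ASC-like cells. Over all 7 mice the ASC-like level ran from 57.8 (mouse 8) through a median of 212 to 370.3 CPM (mouse 4), so the macrophage-like levels lay above every ASC-like level. The difference was 1.55 on the log2 scale (SE 0.401, adjusted p = 0.035, edgeR quasi-likelihood test), close to the threshold, and its adjusted p rose to between 0.0515 and 0.0965 under 4 of the other settings. Reads were uneven among cells. The median macrophage-like cell had 206 CPM in mouse 1 and 530 CPM in mouse 5 while the cells at the 10th percentile had 0, and after thinning to 100000 reads per cell 68.6% of macrophage-like and 57.3% of ASC-like cells had a C4b read.

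Serping1 (ENSMUSG00000023224, chromosome 2, 84765387 to 84775444), C3 (ENSMUSG00000024164, chromosome 17, 57203970 to 57228136), the component on which the pathways converge, C1ra (ENSMUSG00000055172, chromosome 6, 124512405 to 124523443), the C1r protease, and C2 (ENSMUSG00000024371, chromosome 17, 34862604 to 34898265), the protease of the C3 convertase, ran the other way. Serping1 ranged from 2147 through a median of 2872 to 4492 CPM in ASC-like cells and measured 4.97 and 4.17 CPM in macrophage-like cells. C1ra ranged from 447 through 578 to 1005 CPM in ASC-like cells and measured 5.31 and 18.8 CPM in macrophage-like cells. These ranges did not overlap, and a Serping1 read was found in 2250 of 2250 ASC-like cells even after thinning. Against ASC-like cells of the same mice, the fitted log2 differences of macrophage-like cells were -9.17 (SE 0.579) for Serping1, -7.21 (SE 0.506) for C3, -5.25 (SE 0.650) for C1ra and -3.18 (SE 0.417) for C2. They too are given without a p-value, since these genes passed the filter through the ASC-like sums and had 167 to 753 reads in the macrophage-like sums. C3 measured 10.2 and 5.37 CPM and C2 7.11 and 9.87 CPM in the macrophage-like cells of mice 1 and 5. C1ra took 99.4 to 99.7% of the reads of C1ra and its copy C1rb in ASC-like cells.

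Of the 8 members that entered the test between macrophage-like and ASC-like cells, C4b alone passed the filter in both classes. It was called (adjusted p below 0.05 and fold change above 2.6), as were 25.2% of 8036 genes, of which 11.9% were higher in macrophage-like and 13.3% higher in ASC-like cells. The other 7 passed only through the class in which they were high, 3 through macrophage-like and 4 through ASC-like cells, so a count of their calls would be fixed by the filter. C7 was not tested here, since only the ASC-like sum of mouse 1 had over 600 reads, and it measured 1.68 and 0 CPM in macrophage-like cells. The wider list of complement genes held 46 names, of which 39 had a row. Of these 19 were tested and 15 called, 11 higher in macrophage-like cells and 4 lower, a count to which the same filter applies and from which nothing is read about the list. The receptors for complement fragments C3ar1 (183 ± 25.1 CPM, SD, 2 mice, against 0.0453 ± 0.0420 in 7 ASC-like sums) and C5ar1 (269 ± 141 against 0.108 ± 0.159 CPM) were higher in macrophage-like cells, by 11.13 and 9.76 on the log2 scale. So were the C3 fragment receptors Vsig4, by 12.19, and Itgam with Itgb2, by 9.72 and 10.05. Properdin (Cfp), which stabilises the alternative convertase, was higher by 8.68, the ficolin Fcna by 12.44 and the terminal component C6 by 8.31. The C1s protease gene C1s1 had a log2 difference of -9.60 and was lower, as were the regulators Cd55 (-5.66), Clu (-5.40) and Vtn (-6.48). C3ar1, C5ar1, Vsig4, Itgam, Fcna and C6 had at most 53 reads in all cells of an ASC-like subtype, and C1s1 had 64 in macrophage-like cells. These genes passed the filter only through the class in which they are high. All these differences of the wider list are descriptions and are not read as calls.

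**Figure D3:**
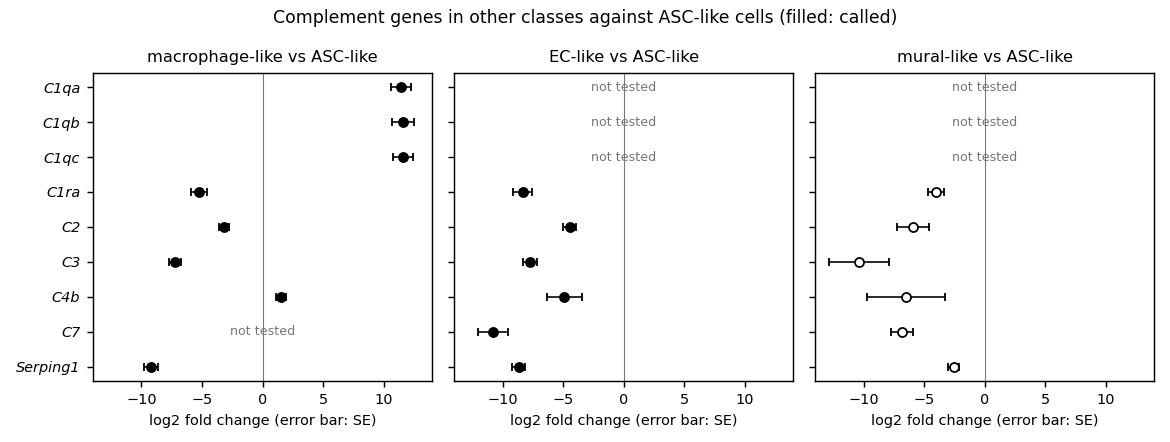
Log2 fold change of each member in macrophage-like (left), EC-like (middle) and mural-like (right) cells against ASC-like cells of the same mice, with the standard error as the bar and filled points for called genes. The 3 C1q genes lie above 11 and C4b, the one member that passed the filter on low values in both classes, at 1.55 on the left, every tested member is below 0 in the middle, and on the right all 6 are below 0 with no filled point. The other members on the left, C1ra, C2 and C7 in the middle, and all but Serping1 on the right, passed the filter only through the class in which they are high. Their filled points are not read as calls.

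In EC-like cells all tested members were low. Serping1 measured 43.4 CPM in mouse 1 and 6.67, 2.67, 4.62 and 5.48 CPM in mice 2, 5, 6/7 and 8. C3 ran from 1.95 (mouse 1) through a median of 10.7 to 21.4 CPM (mouse 8), C1ra from 0.397 through 2.02 to 7.14 CPM, and C2 from 0.397 through 2.65 to 7.42 CPM. Not 1 of these ranges overlapped the ASC-like range of the same gene. Serping1 was lower than in ASC-like cells of the same 5 mice by a log2 difference of -8.66 (SE 0.546, adjusted p = 5.9e-05, edgeR quasi-likelihood test with Benjamini-Hochberg adjustment) and C3 by -7.73 (SE 0.585, adjusted p = 1.0e-04, edgeR). For C1ra and C2 the fitted differences were -8.34 (SE 0.794) and -4.46 (SE 0.519), given without a p-value because these genes passed the filter only through the ASC-like sums, with at most 616 reads in an EC-like sum. C4b, at 8.91, 10.4, 3.34, 0.0579 and 48.2 CPM in mice 1, 2, 5, 6/7 and 8, was lower, with a log2 difference of -4.91 (SE 1.43, adjusted p = 0.039, edgeR). The difference stayed between -5.86 and -3.94 with any 1 mouse left out, while the adjusted p by edgeR was 0.114, 0.0874, 0.122 and 0.0523 without mouse 1, 2, 5 or 6/7, so the call was lost in these 4 fits. C7 had no read in 3 of 5 EC-like sums, at most 5 reads and 0.318 CPM in the others, and 2.25 CPM or more in every ASC-like sum. It too passed the filter only through the ASC-like sums. C7 reads were found in 5 of 559 EC-like cells (0.894%) and, after thinning, in 0 of 559, which allows up to 0.537% of cells with a read at that depth and sets no limit on the cells that express the gene.

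Of the 6 members that entered the test, Serping1, C3 and C4b passed the filter in both classes, and these 3 were called lower in EC-like cells, where 22.7% of 12203 genes were called and 14% were higher in ASC-like cells. The C1q genes did not pass the filter on low values and were not tested. On the wider list 11 of 15 tested genes were called, 8 lower and 3 higher in EC-like cells, a count that the filter also touches. Those higher were Cfd (adipsin, the factor D protease) by 8.49, Cd93, a surface protein of endothelial and myeloid cells, by 9.42 and Cd59a, which blocks the terminal pore, by 3.26. Cd93 had 339, 61 and 70 reads in all ASC1a, ASC1b and ASC2 cells, so it passed the filter only through the EC-like sums. These differences are given as descriptions. Cfd averaged 521 ± 171 CPM in EC-like sums. All 8 adipocyte markers also had reads there and summed to 887 to 1635 CPM, with Adipoq at 49.2 to 226 CPM, against 2.22 to 34.2 CPM for the list in ASC-like cells, and their part in the Cfd level was not tested.

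Serping1 was also the leading member in the mural and lymphatic classes. Pericyte-like cells had 774 CPM (mouse 1) and 352 CPM (mouse 2) of Serping1, VSMC-like cells of mouse 1 had 987 CPM and the 22 lymphatic EC-like cells, pooled over mice, had 536 CPM, all between the EC-like and the ASC-like ranges. C1ra came next among the mural classes, at 26.4 and 18.4 CPM in pericyte-like and 69.3 CPM in VSMC-like cells. C3 measured 7.65 and 0.0370 CPM in pericyte-like cells and 63.2 CPM in lymphatic EC-like cells, and C7 4.27 CPM in VSMC-like cells and 5.10 and 0 CPM in pericyte-like cells. The 19 epithelial-like cells of mouse 1 had 18.4 CPM of Serping1 and 21.4 CPM of C4b. Pericyte-like sums also held 979 and 2903 CPM of the 4 EC markers, and the part of these in the values was not tested.

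The pericyte-like and VSMC-like cells were summed as mural-like cells for a test against ASC-like cells in mice 1 and 2, with 1 residual degree of freedom. The sum of mouse 1 held 44 pericyte-like and 38 VSMC-like cells, and that of mouse 2 held 13 pericyte-like and 0 VSMC-like cells. None of the 6 tested members was called, as was true of all 9701 genes (0%), although 1373 genes had an unadjusted p below 0.05 by the edgeR quasi-likelihood test. Serping1 alone passed the filter on low values in both classes. The mural-like sum of mouse 2 held 9501 reads of it and at most 498 of any other tested member. The likelihood ratio test of edgeR called 1018 genes and DESeq2 called 1387. Both called 5 members lower (all but C4b), a count that is not read, since all of these but Serping1 passed only through the ASC-like sums. By the quasi-likelihood test the difference of Serping1 on the log2 scale was -2.56 (SE 0.441, adjusted p = 0.119). The fitted differences of C1ra (-4.00, SE 0.652), C7 (-6.84, SE 0.910) and C3 (-10.38, SE 2.50) are descriptions and carry no p-value. The C3 level of mouse 2 in pericyte-like cells rested on a single read. Vitronectin (Vtn), which binds the terminal complex, averaged 231 ± 68.9 CPM in pericyte-like cells and 75.1 ± 21.4 CPM in ASC-like cells, and 0 of 12 tested genes of the wider list were called.

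Within ASC-like cells, subtypes ASC1a (800 cells), ASC1b (667) and ASC2 (783) were ranges of a score from their markers (Col15a1, G0s2 and Cxcl14, then Clec11a, Fmo2 and F3, then Dpp4, Arl4d and Pi16), and 466 of the 2250 cells (20.7%) lay within 0.25 of a boundary. The scores were z-scores within each mouse, so a subtype name places a cell among the cells of its own mouse. They gave 88 ASC1a, 67 ASC1b and 89 ASC2 cells in mouse 1 and 122, 114 and 127 in mouse 4. In the paper's clustering the male ASC1a cluster held no cell of mouse 1, and the male ASC2 cluster almost none of mouse 4. The subtypes here need not match those of the paper. C7 (ENSMUSG00000079105, chromosome 15, 4988762 to 5063740), a terminal component that anchors the pore in the membrane, was the member that varied most between subtypes. In males C7 measured 92.0, 132 and 263 CPM in the ASC2 cells of mice 1, 4 and 8, 541, 225 and 312 CPM in ASC1a and 876, 309 and 645 CPM in ASC1b. In females it measured 0.225, 0.228, 0 and 0.490 CPM in the ASC2 cells of mice 2, 3, 5 and 6/7, 3.29, 1.80, 0.895 and 0.731 CPM in ASC1a, and 11.1, 12.7, 7.28 and 12.3 CPM in ASC1b. The order ASC2, ASC1a, ASC1b of the subtypes named within each mouse held in 7 of 7 mice and in both sexes. The sexes did not overlap in any subtype, the lowest male level (92.0 CPM, in ASC2) being above the highest female level (12.7 CPM, in ASC1b). C7 was higher in ASC1b than in ASC2 by 3.69 on the log2 scale (SE 0.594, adjusted p = 6.8e-04, edgeR quasi-likelihood test, mouse as a block). The ASC2 sums of females held only 0 to 59 reads of C7. With all mice kept, the difference ran from 1.97 to 4.08 under other settings. For ASC1a against ASC2 the difference was 1.60 (SE 0.548, adjusted p = 0.084, edgeR) and for ASC1a against ASC1b -2.09 (SE 0.538, adjusted p = 0.074, edgeR). Whether the subtype difference is larger in females was not tested.

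The share of cells with a C7 read, after thinning every cell to 100000 reads, was lowest in ASC2 cells in 6 of 7 mice. In females it was 0 to 3.12% of ASC2, 1.87 to 11.3% of ASC1a and 16.1 to 22.1% of ASC1b cells. In males it was 57.3, 87.4 and 59.3% of ASC2 cells, 90.9, 96.7 and 68.8% of ASC1a cells and 89.6, 98.2 and 88.4% of ASC1b cells of mice 1, 4 and 8. ASC1b cells of females had C7 reads in a minority of cells, whereas most ASC2 cells of males had one. Female 6/7, with 3.12% in ASC2 and 1.87% in ASC1a, was the mouse out of order, and male 1 had the higher share in ASC1a.

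Bases before the starts of C7 and C3 are shown because both differ in level among ASC-like cells of different mice. Capitals mark TTCNNNGAA, the element of STAT factors, and TTNNGCAA, letters bound by C/EBP factors, on either strand.
C7 (chr15:5063774-5064023, minus strand): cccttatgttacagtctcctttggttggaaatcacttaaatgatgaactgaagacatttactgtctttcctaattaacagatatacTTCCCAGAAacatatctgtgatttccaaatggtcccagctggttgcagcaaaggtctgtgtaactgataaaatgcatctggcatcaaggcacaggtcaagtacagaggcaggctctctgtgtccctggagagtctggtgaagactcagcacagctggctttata
C3 (chr17:57228137-57228386, minus strand): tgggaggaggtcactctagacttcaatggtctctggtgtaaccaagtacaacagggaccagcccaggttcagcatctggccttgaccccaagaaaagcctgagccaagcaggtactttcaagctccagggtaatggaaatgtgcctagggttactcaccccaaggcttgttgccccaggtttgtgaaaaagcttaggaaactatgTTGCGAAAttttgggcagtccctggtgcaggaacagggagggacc
C7 has TTCNNNGAA from 164 to 156 bases before its start, which 7.02% of the 32851 windows hold, and C3 has TTNNGCAA on the opposite strand from 45 to 38 bases before its start, which 9.56% hold. Neither window has AGAACA, which says only that these letters are absent from it, and that of C1ra has none of the 4 motifs searched.

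The order of C4b over subtypes varied more between mice than that of C7. Its level ran from 30.9 through a median of 76.6 to 281 CPM in ASC2, from 47.6 through 243 to 460.3 CPM in ASC1a and from 44.4 through 305 to 529 CPM in ASC1b cells. ASC1b lay above ASC2 in 6 of 7 mice, the exception being male mouse 8 with 44.4 against 76.6 CPM. ASC1a lay above ASC2 in 5 of 7 mice, the exceptions being male 4 with 278 against 281 CPM and male 8 with 47.6 against 76.6 CPM, and ASC1a lay above ASC1b in 2 of 7, mice 5 and 8. C4b was higher in ASC1b than in ASC2 by 1.53 on the log2 scale (SE 0.377, adjusted p = 0.0175, edgeR), a call lost without mouse 1, 2, 3 or 6/7 (adjusted p between 0.0598 and 0.0814, edgeR). The difference itself stayed between 1.28 and 1.94 with any 1 mouse left out. For ASC1a against ASC2 it was 1.14 (SE 0.375, adjusted p = 0.070, edgeR).

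Serping1 was higher in ASC1b than in ASC2 in 7 of 7 mice, with medians of 3487 and 2551 CPM, by 0.47 on the log2 scale (SE 0.0712, adjusted p = 4.3e-04, edgeR), a difference under the fold limit of 2.6. In ASC2 cells its levels in males (2607 CPM and above) lay just over those in females (2551 CPM and below), and in the other subtypes the sexes overlapped. C2 was higher in ASC1b than in ASC1a in 7 of 7 mice and than in ASC2 in 6 of 7, with a median of 27.0 CPM in ASC2, 41.1 CPM in ASC1a and 96.8 CPM in ASC1b, and the log2 difference of 1.105 between ASC1b and ASC2 did not pass the test (adjusted p = 0.075, edgeR). Mouse 5 was the exception, with 177.7 CPM in 36 ASC2 cells, and without it the difference was 1.55 (SE 0.208, adjusted p = 2.96e-04, edgeR) and was called. The ASC-like cells of mouse 5 also held 134 CPM of 5 markers of mesothelial cells, which cover the depot. These markers summed to 0.386 to 2.48 CPM in the other females and to 70.1, 21.4 and 0.0373 CPM in males 1, 4 and 8. The part of such cells in the C2 levels was not tested. C1ra and C3 had medians of 556, 577 and 640.1 CPM and of 1403, 1658 and 2173 CPM in ASC2, ASC1a and ASC1b. The C1q genes stayed between 0 and 3.99 CPM in each subtype and mouse, the highest being C1qa in the ASC2 cells of mouse 4, whose plate held 0 macrophage-like cells.

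Between subtypes 2 of 6 tested members were called for ASC1b against ASC2, where 2.53% of 11145 genes were called and 1.37% were higher in ASC1b. For ASC1a against ASC2 none was called against 3.18% of genes, and for ASC1a against ASC1b none against 0.359%. In each of these 2 comparisons 3 members had an unadjusted p below 0.05 by the edgeR quasi-likelihood test, and the likelihood ratio test and DESeq2 each called C7 alone. Of 10 wider genes tested, those called included Vtn, higher in ASC1a and ASC1b than in ASC2 by 2.85 and 1.57, Cd55, which dismantles C3 convertases, lower in both (-2.40 and -1.83), and Clu, lower in ASC1a than in ASC2 (-1.72) and ASC1b (-2.54 on the log2 scale). The comparisons share subtype sums, so their lists are not independent.

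**Figure D4:**
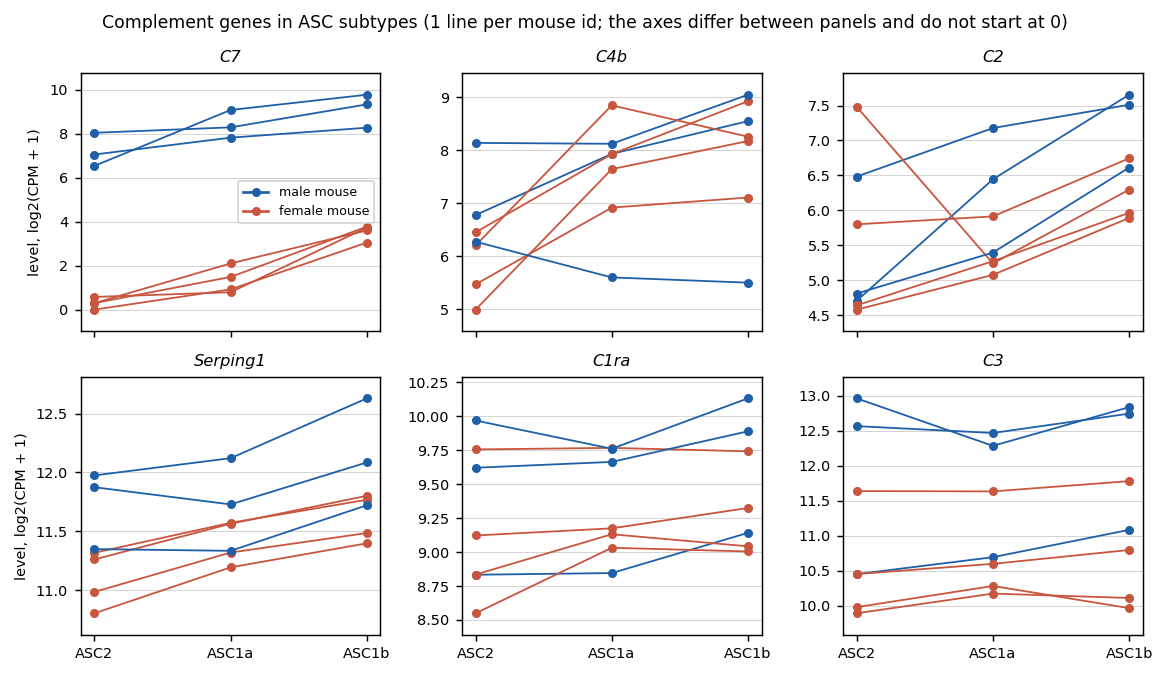
Level of 6 members as log2(CPM + 1) in ASC2, ASC1a and ASC1b cells, with 1 line per mouse id (blue male, red female) and axes that differ between panels and do not start at 0. C7 climbs from ASC2 to ASC1b in all 7 mice with males above females throughout, C4b is lower in ASC1b than in ASC2 in mouse 8 alone, and the C2 line of mouse 5 starts at 177.7 CPM in ASC2.

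The ASC-like cells of mouse 2 could also be divided without the score, because they were sorted by the DPP4 protein. There were 379 cells on a DPP4-positive plate (median 792328 reads) and 368 on a DPP4-negative plate (745234 reads). They are the same cells as in the subtype sums of mouse 2, and Dpp4 is an ASC2 marker of the score, so the 2 views are not independent. The score named 265 cells of mouse 2 ASC2, fewer than were sorted as DPP4-positive. Dpp4 measured 196 CPM on the former and 1.56 CPM on the latter. C4b measured 72.2 CPM in DPP4-positive and 347 CPM in DPP4-negative cells, C7 0.843 and 10.6 CPM, and C2 38.3 and 64.4 CPM. Serping1 (3785 and 3997 CPM), C3 (1969 and 2090.2 CPM) and C1ra (803 and 727 CPM) were the members with the smallest ratios between the sorts. After thinning, C4b had reads in 28.0% (exact 95% interval 23.5 to 32.8%) of DPP4-positive and 73.9% (69.1 to 78.3%) of DPP4-negative cells, C7 in 3.43% (1.84 to 5.79%) and 19.3% (15.4 to 23.7%), and C2 in 33.5% (28.8 to 38.5%) and 47.8% (42.6 to 53.1%). For comparison 15.0% of EC-like cells had a C4b read and 4.29% a C2 read at this depth. Serping1 and C1ra had reads in 100% of both. With 1 plate and 1 animal per sort there is no test, the intervals cover counting error, and the sorts and the plates cannot be told apart.

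**Figure D5:**
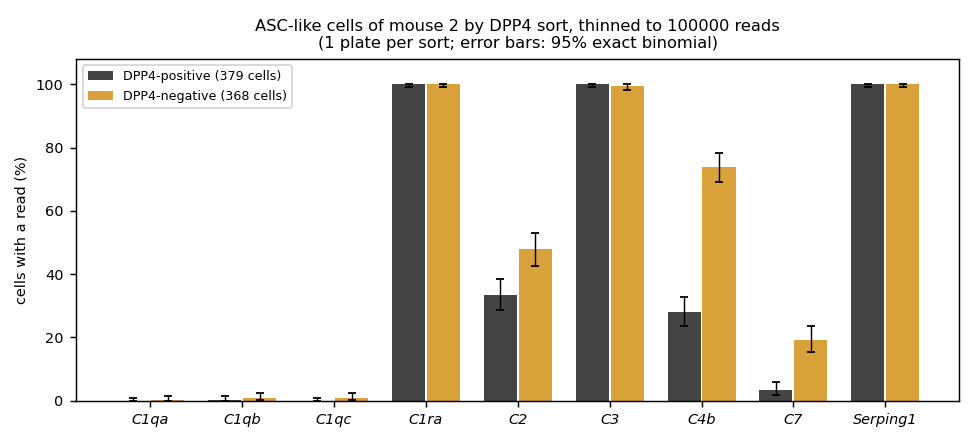
Percent of the ASC-like cells of mouse 2 with a read of each member after thinning to 100000 reads per cell, for the DPP4-positive (dark, 379 cells) and DPP4-negative (yellow, 368 cells) plates, with exact 95% binomial intervals. C4b (28.0 and 73.9%), C2 and C7 are higher on the DPP4-negative plate, while C1ra, C3 and Serping1 are at or near 100% on both.

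The last comparison asked which members differ between male and female ASC-like cells. C3 measured 1592, 6254 and 6792 CPM in males 1, 4 and 8 and 1542, 3254, 1048 and 1031 CPM in females 2, 3, 5 and 6/7. Males 4 and 8 were above all females, whereas male 1 was below female 3. The difference, 1.44 on the log2 scale (SE 0.527), did not pass the edgeR quasi-likelihood test (adjusted p = 0.188), and DESeq2 called it (adjusted p = 0.0396). Of 6 tested members only C7 was called, higher in males by 6.499 (SE 0.415, adjusted p = 5.6e-05, edgeR), against 2.23% of 11820 genes and 1.55% higher in males. Serping1 (0.48), C2 (0.57), C1ra (0.31) and C4b (0.05) had adjusted p between 0.444 and 0.967 by edgeR, and of 13 wider genes none was called, Cfb coming to 1.16 (adjusted p = 0.218) and Cd55 to -1.07 (adjusted p = 0.093). The members' median was 0.53 on the log2 scale against 0.04 over all genes.

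In EC-like cells (males 1 and 8, females 2, 5 and 6/7) 0 of 3 tested members were called, where edgeR called 0.0493% of 8113 genes and 611 had an unadjusted p below 0.05. Serping1 differed by 2.41 on the log2 scale (SE 0.924, adjusted p = 0.644, edgeR), with 43.4 and 5.48 CPM in males and 2.67 to 6.67 CPM in females, so the sexes overlapped and male 1 stood apart. DESeq2 called none of the 3 either. No member passed the filter on low values in both sexes. C4b passed through males alone, with 607 and 672 reads, and C3 through females alone. Serping1 passed through the male and female sums jointly. The fitted differences of C4b (2.73) and C3 (0.37) are therefore descriptions without a p-value, and the count of 0 is not read.

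Other genes followed the members' patterns over the 18 sums of single mice and classes closely, by Pearson's r of log2(CPM + 1) among 9917 genes. C1qa was most like C1qc (r = 0.996) and the folate receptor gene Folr2 (0.993). C1qc was most like Folr2 (0.998), and C1qb was most like F13a1 (0.978), which encodes a chain of coagulation factor XIII, and had neither other C1q gene among its 3 most similar genes. The gene ranked next for C1qc after C1qa was Cma1 (0.993), which encodes a mast cell protease. C3 was most like Dpep1 (0.983) and the ASC2 marker Pi16 (0.980), Serping1 most like Plac9b (0.986), C1ra most like Loxl3 (0.978), C2 most like Ifi205 (0.941) and C7 most like Col6a5 (0.953) and Sult1e1 (0.946). C4b had the weakest match, with Gas7 at 0.916. The sums share mice, plates and class sizes, so these values are descriptions.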

How the data were processed

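The authors aligned the Smart-seq2 reads with STAR to mm10 with ERCC spike-ins, quantified genes with Salmon, removed poor or mixed cells, and deposited a table of unnormalized counts, whole numbers of reads for each cell and gene. Tool versions and the use of strand are not given in the sources used here, so overlapping genes are uncertain. ERCC rows (1.98% of reads) stayed out of sums and tests.

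Cells were clustered in Seurat 5.3.0 (R 4.3.3, scale factor 500000, 2975 of 3000 variable genes after removal of 25 complement genes, 14 principal components, resolution 1.1). A cluster took the name of its best marker list with at least 3 markers read in 25% of cells, and stayed unnamed when 3 of its 10 leading genes were adipocyte genes or its median mitochondrial share exceeded the median of all cells over 3 times. Doublets were not called, as the authors had removed mixed cells from the sorted wells. Subtype scores were z-scores within each mouse. Counts were summed per mouse and class (at least 10 cells). Genes with over 600 counts in 2 sums or more entered the two-sided quasi-likelihood F test (edgeR 4.0.16, TMM factors), with the mouse as a block for class and subtype contrasts, since the sums of a block come from 1 mouse id (1 animal, except 6/7, which is 2 animals whose sums need not share an animal), and called at an adjusted p below 0.05 and a fold change above 2.6. SE was derived from the fold change and F. Levels are CPM with TMM factors, set over all class sums, over subtype sums or over the sorted plates. Thinning kept 100000 reads of each cell, and 0 cells were shallower. Named genes were all 9 members, the 3 most similar genes to each and called genes of the wider list, of which some are not reported here. Alternatives were the likelihood ratio test, DESeq2 1.42.0, RLE size factors, a filter of 10 counts, other class rules, at least 20 cells, no block, leaving out cells or mice and, chosen after seeing the data, library totals alone. Scripts were tested on simulated data. The members and lists were chosen with earlier results of these data known. Tables and figures used matplotlib 3.10.9, pandas 2.3.3, scipy 1.17.1 and numpy 2.4.6 in Python 3.11.15.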

Additional observations from a re-analysis of the deposited data

Results flagged for a closer look

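In 36 groups of 4 or 5 mice tested by Dixon's gap for a mouse that stood apart from the rest, 9 groups had one. The nominal rate of 1 in 20 is for independent groups of normal values. These groups reuse the same mice, their levels are skewed, and the C7 value of mouse 8 rests on 4 reads. The count of 9 is therefore not read as an excess. In EC-like cells mouse 1 stood apart with 17.9 CPM of C1qa, 15.38 CPM of C1qc and 43.38 CPM of Serping1, mouse 8 with 48.21 CPM of C4b and 0.3177 CPM of C7, and mouse 6/7 with 7.137 CPM of C1ra. In the ASC-like cells of females mouse 5 stood apart with 2.21 CPM of C1qa and 2.528 CPM of C1qb, and in their ASC1a cells mouse 3 with 870 CPM of C1ra. The C1q values of mice 1 and 5 belong to the 2 mice whose plates held macrophage-like cells, and the part of these in the values was not tested.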

How the results depend on the processing

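Of 655 fold changes of members under other settings, 604 kept their direction and their side of the threshold, 20 passed the test newly, 15 no longer passed it and 16 changed sign. The cause of these changes was not tested. The 655 include members that passed the filter on low values only through the class in which they are high, so the 604 are not read as stability. Members called numbered 2 with DESeq2 between the sexes in ASC-like cells (C3 added), where 592 of 11820 genes were called. For mural-like cells they numbered 5 with the likelihood ratio test and 5 with DESeq2 (1018 and 1387 of 9701 genes). All of these but Serping1 passed the filter only through the ASC-like sums. Each of these 2 tools called 1 member for ASC1a against ASC2 (434 and 480 of 11145 genes) and 1 for ASC1a against ASC1b (91 and 118). When cells with a macrophage or leukocyte marker read were left out, 2 were called for ASC1a against ASC2 (308 of 10254 genes). With no replicate block 0 were called for ASC1b against ASC2 (74 of 11145 genes), where the block pairs sums of 1 mouse id (2 animals for 6/7). The block otherwise moved C4b in macrophage-like cells (adjusted p = 0.0965 without it, edgeR). With 1 mouse left out the count was 1 between the sexes in ASC-like cells (92 to 343 of all genes) and 0 in EC-like cells (0 to 667). For EC-like against ASC-like cells it was 5 to 6 (2080 to 2726 of all genes). These include C1ra, C2 and C7, which passed the filter only through the ASC-like sums. For ASC1a against ASC2 the count was 0 to 2 (2 without mouse 8, C4b and C7), against 263 to 354 of all genes. It was 1 to 3 for ASC1b against ASC2 (187 to 307) and 0 for ASC1a against ASC1b (22 to 46).

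All genes called numbered 174 to 592 between the sexes in ASC-like cells under other tools and filters (92 to 343 with a mouse left out, 264 as reported), 0 to 110 in EC-like cells (0 to 667, 4 as reported, 667 being without mouse 1), 1427 to 2534 in macrophage-like cells, 2596 to 3732 in EC-like against ASC-like cells, 0 to 1387 in mural-like cells, 162 to 480 for ASC1a against ASC2, 74 to 408 for ASC1b against ASC2 and 2 to 118 for ASC1a against ASC1b. Library totals alone moved the median of all genes between the sexes to -0.60 in ASC-like and -0.80 in EC-like cells, turned the split of calls in ASC-like cells from 183 higher and 81 lower in males to 87 and 224, and reversed Serping1 (-0.17), C1ra (-0.26), C4b (-0.33) and, in EC-like cells, C3 (-0.49). C3 in EC-like cells also reversed with classes from markers of each cell (-0.11) and ran from -2.27 (without mouse 8) to 1.25 with a mouse left out. C4b between the sexes in ASC-like cells ran from -0.47 to 0.52 with a mouse left out, and ASC1a against ASC2 gave -0.059 to 0.12 for C3 (-0.20 with no replicate block), -0.022 to 0.64 for C2 and -0.0045 to 0.13 for C1ra on the log2 scale.

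Without thinning, reads were found in 48.8 and 75.5% (C2) and 45.6 and 96.7% (C4b) of DPP4-positive and DPP4-negative cells, and in 1.63% (C1qa), 2.72% (C1qb), 31.5% (C7) and 100% (C3) of DPP4-negative cells. Leaving out a mouse in the macrophage-like and mural-like comparisons, and the mural-like comparison with classes from markers of each cell or at least 20 cells, were not run, as no residual degrees of freedom remained.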
